A study of Mustela putorius furo and Mus musculus with 4 samples.

Results

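The transcripts of 10 genes that mark fibroblast growth factor (FGF) signaling were followed through the cell types of the embryonic cortex, namely the receptors *Fgfr1*, *Fgfr2* and *Fgfr3*, the feedback inhibitors *Spry1*, *Spry2*, *Spry4* and *Dusp6*, and the ETS transcription factors *Etv1*, *Etv4* and *Etv5*. They were taken by symbol, and all 10 were present among the 17170 genes of the mouse table and, in upper case, among the 22008 genes of the ferret table. The mouse cells came from the E18 cortex of CD1 embryos, 1 library of *hGFAP-Cre*;*Smo* F/F embryos (*Smo*-cKO) and 1 library of *Smo* F/F littermates without the Cre (control, called wild type in the labels). Both groups were given CellTrace Yellow in the lateral ventricle at E17, and the labeled cells were sorted 1 day later. The human GFAP promoter that drives Cre is active in cortical radial glial (RG) cells, and how many embryos went into each library is not given in the sources used here. The ferret cells came from both cortical hemispheres of 1 wild-type embryo at E39 and carry 2 barcode suffixes, called set 1 and set 2, and neither set carries a name that matches 1 of the labeled samples. These sets kept 10185 and 13052 cells and shared 38 barcodes.

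FGF ligands bind FGF receptors, receptor tyrosine kinases that act through FRS2, RAS, RAF and MEK to activate the kinase ERK. ERK then raises transcription of the ETS factors *Etv1*, *Etv4* and *Etv5* and of its own inhibitors, the Sprouty proteins, which act between the receptor and RAS, and the phosphatase DUSP6, which removes phosphate from ERK. Other receptor tyrosine kinases, EGFR among them, use the same route, so these output genes report ERK activity rather than FGF alone. In the developing cortex FGF signaling is known for keeping RG cells as progenitors and for its part in cortical patterning and gliogenesis.

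The control library held 10524 cells and 52287727 unique molecular identifiers (UMIs), and the *Smo*-cKO library held 7596 cells and 43283675 UMIs. After the limits on genes and mitochondrial transcripts per cell, 10498 and 7209 cells were kept. Cells were assigned to a type by the number of marker genes with a UMI, which gave 1097 control and 950 *Smo*-cKO non-cycling RG cells (called RG cells below), 1183 and 679 cycling RG cells, 578 and 160 progenitors with markers such as *Egfr*, *Olig1* and *Olig2* (bMIPCs), 3322 and 1936 intermediate progenitors of pyramidal neurons (PyN-IPCs) and 1339 and 1409 pyramidal neurons (PyNs). Interneurons (56 and 176 cells), microglia (76 and 152) and vascular and meningeal cells (46 and 26) were few, and 2801 and 1721 cells were left unassigned. Such a class is a range of marker counts: 93 control and 78 *Smo*-cKO cells of both RG classes sat at the lowest accepted number of 4 RG markers, and 875 and 688 cells had 3 RG markers. Classes also shared markers. Of the bMIPCs, 546 of 578 control and 157 of 160 *Smo*-cKO cells also held enough RG markers for the RG class. Of the PyN-IPCs, 1035 and 917 also held enough PyN markers for the PyN class. Markers not used for the assignment went with the names for RG cells and microglia, since the 6 RG check markers summed to 4645 and 4701 CPM (UMIs scaled to a common total of 1e6 per class and library) in RG cells against 133 and 161 CPM in PyNs, and the 4 microglia check markers summed to 2754 and 4012 CPM in microglia and to at most 1.82 CPM in RG cells. The neuronal names were less sharp. The 3 PyN-IPC check markers summed to 1158 and 1235 CPM in PyN-IPCs and to 1010 and 1031 CPM in PyNs, and the 4 PyN check markers to 2305 and 2236 CPM in PyNs and to 1959 and 2497 CPM in interneurons. The 4 bMIPC check markers summed to 97.1 and 144 CPM in bMIPCs and to 11.6 and 8.75 CPM in RG cells, with a median of 0 per bMIPC. The median RG cell held 0 control and 1 *Smo*-cKO PyN check markers of 4 and no PyN-IPC check marker.

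Genotype was assigned by barcode suffix from the cell numbers the study states, so every direction below would turn if that were wrong. *Smo*, the targeted gene, had 76 UMIs in control RG cells (15.5 CPM) and 1 UMI in *Smo*-cKO RG cells (0.165 CPM). In microglia, which arise outside the cortex, *Smo* had 0 and 5 UMIs. The deleted segment of *Smo* is not given in the sources used here, and the counted 3′ tags may lie outside of it. With 1 library per genotype there was no replicate spread and no test, and genotype, embryo and preparation cannot be told apart. All intervals are exact 95% intervals that cover counting error only. The libraries shared 28 barcodes.

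All 10 genes are protein coding in the mouse annotation (GENCODE, GRCm38). *Etv4* lies on chromosome 11 from 101769742 to 101785371 (minus strand), *Etv5* on chromosome 16 from 22381309 to 22439719 (minus strand), *Spry2* on chromosome 14 from 105891947 to 105896819 (minus strand), *Dusp6* on chromosome 10 from 99263231 to 99267489 (plus strand) and *Fgfr1* on chromosome 8 from 25513654 to 25575718 (plus strand). The annotated *Fgfr2* gene overlaps *Ate1* and further genes on the same strand that are also in the mouse table, so the split of reads between them is uncertain. UMIs were counted on 3′ tags, and levels are therefore compared for 1 gene between cell types and libraries and not between genes.

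*Fgfr1* and *Fgfr2* were highest in the RG classes. *Fgfr1* stood at 105 CPM in control and 118 CPM in *Smo*-cKO RG cells and at 111 and 117 CPM in cycling RG cells. It was at 57.6 and 74.3 CPM in bMIPCs, at 28.2 and 42.9 CPM in PyN-IPCs and at 49.3 and 86.9 CPM in PyNs. The order was thus not a plain descent along the neuronal lineage, since *Fgfr1* was 1.75-fold (1.48 to 2.06) higher in PyNs than in PyN-IPCs in the control library and 2.02-fold (1.78 to 2.31) higher in the *Smo*-cKO library. The values of PyNs and bMIPCs overlapped between the libraries. Microglia, which served as a background for free RNA, had 2 and 3 *Fgfr1* UMIs, 2.62 and 1.89 CPM.

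*Fgfr2* was confined more closely to RG cells. Its level was 84.3 and 84.9 CPM in RG cells, 62.9 and 80.9 CPM in cycling RG cells, 22.6 and 21.0 CPM in bMIPCs, 6.20 and 7.73 CPM in PyN-IPCs and 8.74 and 11.7 CPM in PyNs. Interneurons had only 6 and 5 *Fgfr2* UMIs (30.4 and 9.15 CPM), values that overlapped those of bMIPCs and PyNs. RG cells exceeded PyNs 9.65-fold (7.01 to 13.6) in the control library and 7.28-fold (5.67 to 9.46) in the *Smo*-cKO library, where *Fgfr1* differed 2.13-fold (1.82 to 2.49) and 1.35-fold (1.21 to 1.52). *Fgfr3*, a receptor known from the caudal cortex and from astrocytes, was low, at 16.7 and 15.2 CPM in RG cells, 23.2 and 14.5 CPM in cycling RG cells and 2.29 and 1.15 CPM in PyNs. The values of RG, cycling RG and bMIPC cells overlapped for *Fgfr3*, so these 3 types had no set order. No *Fgfr3* UMI was found in interneurons, microglia or vascular and meningeal cells, and among the 76 control microglia a count of 0 (limit of 3 counts) allows a share of cells with a UMI of up to 3.95%, which is no limit on cells expressing the gene.

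The inhibitors followed another pattern, with the highest levels among cortical lineage cells in bMIPCs. *Spry2* reached 461 CPM in control and 614 CPM in *Smo*-cKO bMIPCs, against 265 and 273 CPM in RG cells and 325 and 301 CPM in cycling RG cells. In PyN-IPCs it stood at 44.5 and 46.5 CPM and in PyNs at 42.8 and 49.6 CPM, values that overlapped. bMIPCs exceeded RG cells 1.74-fold (1.62 to 1.87) and 2.25-fold (2.09 to 2.43). Most bMIPCs were cycling, 490 of 578 control and 127 of 160 *Smo*-cKO cells, while the RG class held non-cycling cells only. Non-cycling bMIPCs held *Spry2* at 278 and 379 CPM, in the control close to the level of RG cells. Cycling bMIPCs held it at 484 and 660 CPM.

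*Spry1* was nearly absent from mouse RG cells, with 5 control UMIs and 1 *Smo*-cKO UMI, and was counted 45 and 61 times in bMIPCs (11.2 and 32.9 CPM). *Spry4* was at 6.53 and 4.95 CPM in RG cells and at 21.9 and 35.6 CPM in bMIPCs. *Dusp6* had 12 and 24 UMIs in RG cells (2.45 and 3.96 CPM) and stood at 22.1 and 33.9 CPM in bMIPCs, 9.03-fold (4.92 to 18.1) and 8.56-fold (5.28 to 14.3) over RG cells. Non-cycling bMIPCs had 6 and 19 *Spry1* UMIs, 8 and 17 *Spry4* UMIs and 2 and 6 *Dusp6* UMIs, the last at 4.44 and 19.9 CPM. *Dusp6* in cycling bMIPCs was at 24.3 and 36.6 CPM, against 3.79 and 8.24 CPM in cycling RG cells. Its highest levels lay outside the cortical lineage, at 102 and 119.6 CPM in microglia and 230.0 and 139 CPM in vascular and meningeal cells. The latter also held the highest *Spry1* level, 75.6 and 75.0 CPM, from 23 and 14 UMIs. In RG cells the 4 microglia check markers summed to 0.408 and 1.82 CPM and the 3 vascular check markers to 0.816 and 0.826 CPM, both near 0.

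The ETS factors were higher in the RG and bMIPC classes than in PyN-IPCs and PyNs. *Etv1* was at 73.7 and 95.3 CPM in RG cells, 93.4 and 103 CPM in cycling RG cells, 120.2 and 154 CPM in bMIPCs, 9.46 and 15.8 CPM in PyN-IPCs and 3.54 and 4.76 CPM in PyNs. RG cells exceeded PyNs 20.8-fold (12.8 to 36.2) in the control library and 20.0-fold (13.8 to 30.1) in the *Smo*-cKO library. *Etv4* was at 28.0 and 59.1 CPM in cycling RG cells, 35.3 and 51.7 CPM in bMIPCs and at most 2.51 CPM in the neuronal classes. bMIPCs exceeded RG cells 1.86-fold (1.42 to 2.44) for *Etv4* in the control library, but stood level with them in the *Smo*-cKO library, 1.01-fold (0.797 to 1.28). *Etv5* gave 1.89-fold (1.58 to 2.27) and 1.15-fold (0.962 to 1.37) in the same comparison. Control cycling RG cells also exceeded RG cells, 1.48-fold (1.15 to 1.91) for *Etv4* and 1.68-fold (1.42 to 1.99) for *Etv5*. Non-cycling control bMIPCs had 4 *Etv4* UMIs (8.89 CPM), against 19.0 CPM in control RG cells. For *Etv5* they stood at 66.7 CPM against 41.2 CPM. The part of cycling in the bMIPC ratios was not tested. *Etv5* was also counted in microglia, at 48.4 and 40.3 CPM, where *Etv4* had 3 and 5 UMIs, and in interneurons, at 55.8 and 38.4 CPM, values that overlapped those of RG cells. *Etv1* stood at 25.4 and 53.1 CPM in interneurons.

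**Figure D1:**
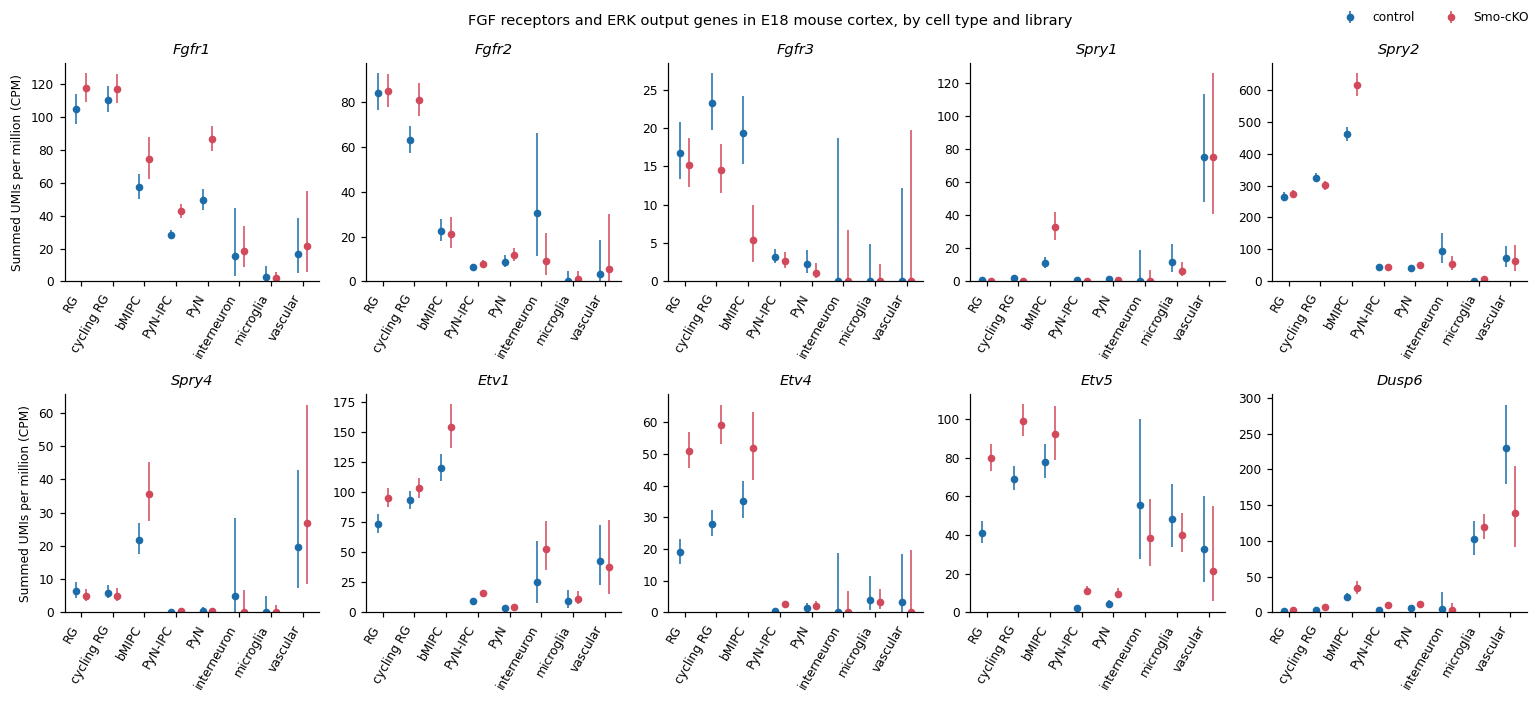
Level of each gene (vertical axis, summed UMIs as CPM, linear and starting at 0) in 8 mouse cell types, with control in blue and *Smo*-cKO in red. Points are the value of 1 library and bars are exact 95% Poisson intervals. *Fgfr2* is highest in RG cells, *Spry2* peaks in bMIPCs at 461 and 614 CPM, and *Etv4* and *Etv5* are higher in *Smo*-cKO than in control RG cells.

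The next question was whether loss of SMO, the transducer of SHH signaling, went with a different level of these genes in RG cells. *Etv4* stood at 19.0 CPM in control RG cells (93 UMIs) and at 51.0 CPM in *Smo*-cKO RG cells (309 UMIs), a ratio of 2.69 (2.13 to 3.43). *Etv5* stood at 41.2 CPM (202 UMIs) and 79.9 CPM (484 UMIs), a ratio of 1.94 (1.64 to 2.30). Among all 9978 genes with at least 50 UMIs in the RG cells of both libraries together, *Etv4* lay at percentile 99.0 and *Etv5* at percentile 97.6 of the ratio. The intervals of the libraries did not overlap for either gene.

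The remaining genes differed less. *Etv1* was 1.29-fold (1.13 to 1.48) higher and *Fgfr1* 1.12-fold (1.00 to 1.26) higher in the *Smo*-cKO library. The ratio was 1.01 (0.883 to 1.15) for *Fgfr2*, 0.908 (0.667 to 1.24) for *Fgfr3*, 1.03 (0.957 to 1.11) for *Spry2* and 0.759 (0.445 to 1.29) for *Spry4*. *Dusp6* had 36 UMIs and *Spry1* 6 UMIs in both libraries together, too few for a ratio to be read. Thus 8 of the 10 genes had at least 50 UMIs, 2 of these were at least 1.5-fold higher in *Smo*-cKO RG cells and 0 were as much lower, where 6.18% of all genes were higher and 4.74% lower by that fold. The median log2 ratio was 0.11 over these 8 genes and 0.01 over all genes.

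*Smo*-cKO RG cells were sequenced more deeply, with a median of 6368 UMIs per cell against 4186, which raises the share of cells in which any gene is seen. The share with an *Etv4* UMI was 7.66% in the control (6.15 to 9.39%) and 22.0% in the *Smo*-cKO library (19.4 to 24.8%). *Etv5* was seen in 14.7% (12.6 to 16.9%) and 34.9% (31.9 to 38.1%). With every cell thinned to 3000 UMIs, leaving out the shallower 173 control and 93 *Smo*-cKO cells, the expected shares were 5.25% and 12.9% for *Etv4* and 10.7% and 19.7% for *Etv5*. The share therefore still differed for both genes at equal depth.

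For *Fgfr1* most of the gap in shares went with depth. It was seen in 34.9% and 48.2% of RG cells, but at 3000 UMIs in 25.9% and 28.5%. *Fgfr2* went from 28.1% and 35.1% to 21.0% and 20.4%, and *Spry2* from 55.4% and 63.3% to 44.8% and 46.4%. *Etv1* kept a small gap, from 25.0% and 37.9% to 18.4% and 22.7%. In PyNs, where median depth was 3215 and 4005 UMIs, *Etv4* was seen in 0.523% and 0.852% of cells, and in microglia, at 7444.5 and 7571.5 UMIs, *Fgfr1* was seen in 2.63% and 1.97% and *Etv4* in 3.95% and 3.29%. The RG shares of *Etv4* and *Fgfr1* lay above both, though for *Etv4* the interval of the 76 control microglia (0.822 to 11.1%) reached past the control RG share.

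**Figure D2:**
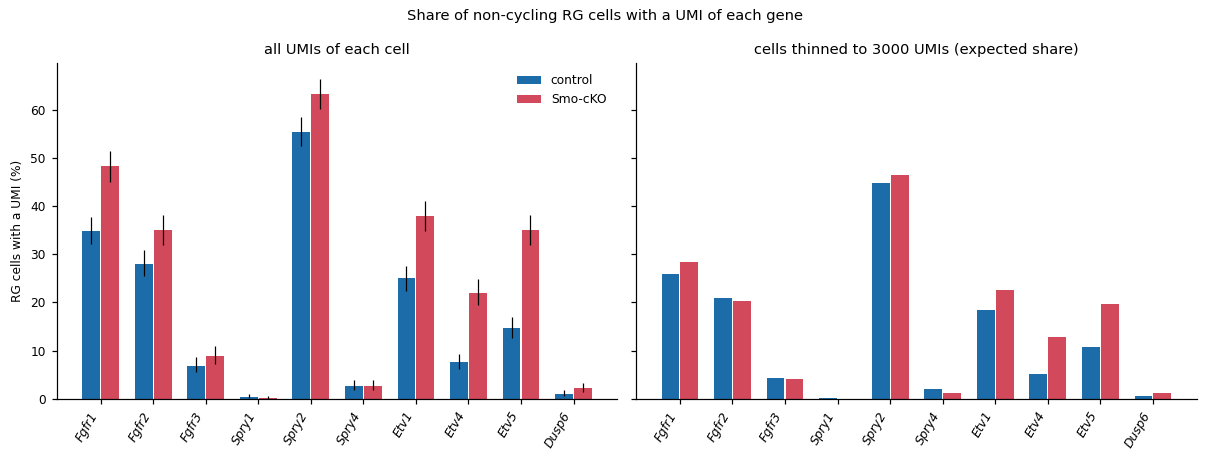
Share of RG cells with a UMI of each gene (vertical axis, percent, from 0) with all UMIs (left, bars are exact 95% binomial intervals) and after thinning each cell to 3000 UMIs (right, expected shares), control in blue and *Smo*-cKO in red. After thinning, *Etv4* (5.25% and 12.9%) and *Etv5* (10.7% and 19.7%) are the genes whose shares stay more than 5 percentage points apart.

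The *Etv4* and *Etv5* ratios were followed through subsets of the RG cells. Among cells of 3000 to 6000 UMIs *Etv4* was at 18.3 and 53.3 CPM, a ratio of 2.92 (2.07 to 4.13), and among deeper cells at 18.4 and 50.4 CPM, a ratio of 2.74 (1.71 to 4.64). *Etv5* gave 1.76 (1.35 to 2.29) and 1.68 (1.25 to 2.30) in the same bins. *Etv1* gave 1.24 (1.01 to 1.52) and 1.77 (1.33 to 2.39) there, and *Fgfr2* gave 0.693 (0.540 to 0.882) and 1.06 (0.848 to 1.35). Below 3000 UMIs *Etv4* had 12 and 8 UMIs and its interval included 1 (1.88, 0.667 to 5.01), while *Etv5* gave 2.52 (1.23 to 5.13).

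More RG markers per cell went with more *Etv5* in both libraries. In cells with 4 to 5 RG markers *Etv5* had 2 control and 8 *Smo*-cKO UMIs. In cells with 6 to 7 RG markers it stood at 19.3 and 48.7 CPM, a ratio of 2.53 (1.58 to 4.13), and in cells with 8 to 9 RG markers at 58.6 and 90.5 CPM, a ratio of 1.54 (1.29 to 1.86). *Etv4* gave ratios of 3.61 (2.06 to 6.61) and 2.23 (1.70 to 2.95) in these bins. Both genes were thus higher in *Smo*-cKO cells at like numbers of RG markers. *Smo*-cKO cells were more often in the highest bin (662 of 950 cells) than control cells (619 of 1097). The *Smo*-cKO cells were also deeper, and the numbers of markers were not set at equal depth.

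Markers of maturing astroglia also differed between the libraries, with the numbers of cells below not set at equal depth. *Gfap*, *Aqp4* and *S100b*, the 3 of 4 listed markers that were in the table, summed to 136 CPM in control and 206 CPM in *Smo*-cKO RG cells, and 359 control and 497 *Smo*-cKO RG cells had a UMI of at least 1 of them. In the cells without such a UMI, an alternative chosen after the data were seen, *Etv4* was at 19.4 and 47.2 CPM, a ratio of 2.43 (1.77 to 3.37), and *Etv5* at 37.2 and 77.6 CPM, a ratio of 2.09 (1.65 to 2.65). In the cells with one, the ratios were 2.95 (2.02 to 4.43) and 1.69 (1.32 to 2.17). The intervals of both sides overlapped for each gene.

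**Figure D3:**
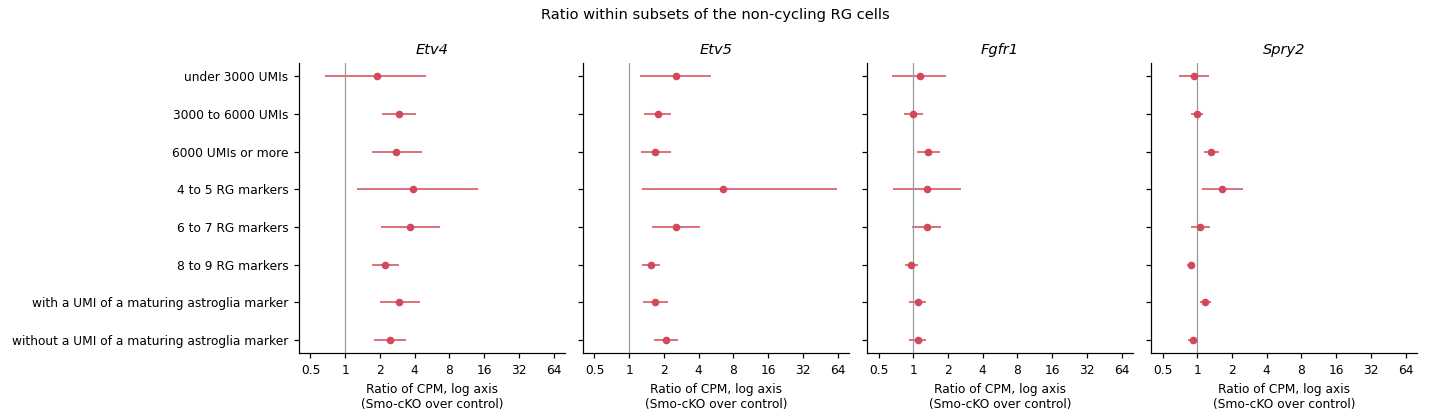
Ratio of CPM, *Smo*-cKO over control, of 4 genes within subsets of the RG cells by depth, number of RG markers and maturing astroglia markers (horizontal log axis, bars are exact 95% intervals, gray line at 1). *Etv4* and *Etv5* lie above 1 in every subset, while *Fgfr1* and *Spry2* lie between 0.885 and 1.65; the *Etv4* interval reaches below 1 in cells under 3000 UMIs.

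In cycling RG cells *Etv4* was again higher in the *Smo*-cKO library, 59.1 against 28.0 CPM, a ratio of 2.11 (1.76 to 2.53). *Etv5* was at 99.3 against 69.2 CPM, a ratio of 1.44 (1.27 to 1.62) that stayed under 1.5. *Dusp6* had 49 against 26 UMIs, a ratio of 2.17 (1.32 to 3.64). *Fgfr3* was lower, with 86 against 159 UMIs and a ratio of 0.624 (0.474 to 0.816), and *Fgfr2* was 1.29-fold (1.13 to 1.47) higher. Of 9 genes with at least 50 UMIs, 2 were higher and 1 lower by 1.5-fold, where 5.29% of all genes were higher and 5.86% lower. Median depth was 5270 UMIs in control and 8527 UMIs in *Smo*-cKO cycling RG cells.

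bMIPCs were fewer and deeper in the *Smo*-cKO library, 160 cells with a median of 11047 UMIs against 578 cells with 6239. The inhibitors were higher there. *Spry1* stood at 32.9 against 11.2 CPM, a ratio of 2.94 (1.97 to 4.42). *Spry4* stood at 35.6 against 21.9 CPM (1.63, 1.16 to 2.26), and *Dusp6* at 33.9 against 22.1 CPM (1.54, 1.09 to 2.14). *Spry2* was 1.33-fold (1.24 to 1.44) higher. Within the class, *Spry4* gave 1.41 (0.966 to 2.03) in cycling bMIPCs, and in bMIPCs with 2 bMIPC markers *Dusp6* gave 1.13 (0.424 to 2.77) and *Spry1* 1.67 (0.630 to 4.22), intervals that included 1. The summed bMIPC check markers were also higher in the *Smo*-cKO library, as given above. For its stained *Smo*-cKO sections, the study assigns a few remaining OLIG2-positive cells to the medial ganglionic eminence. Whether the class held like cells in both libraries was not tested.

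The ratios of the ETS factors in bMIPCs were 1.47 (1.12 to 1.91) for *Etv4*, 1.28 (1.10 to 1.49) for *Etv1* and 1.18 (0.975 to 1.43) for *Etv5*. Whether they differed from those in RG cells was not tested. *Fgfr3* had 10 UMIs against 78, a ratio of 0.278 (0.128 to 0.539), and made up 5.35% (2.59 to 9.61%) of the UMIs of the 3 receptors in *Smo*-cKO bMIPCs against 19.5% (15.7 to 23.7%) in control bMIPCs. Of the 10 genes 3 were higher and 1 was lower by 1.5-fold, where 4.97% of all genes were higher and 6.98% lower. Of the bMIPCs, 490 of 578 control and 127 of 160 *Smo*-cKO cells were cycling, and *Fgfr3* within the cycling cells gave 0.263 (0.109 to 0.547). *Fgfr3* had 7 against 24 UMIs in bMIPCs with 2 bMIPC markers (0.703, 0.256 to 1.68) and 3 against 54 UMIs in those with 3 or 4 (0.112, 0.0225 to 0.347).

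In PyN-IPCs *Etv5* stood at 11.2 against 2.38 CPM (4.69, 3.18 to 7.08), *Dusp6* at 10.4 against 3.40 CPM (3.07, 2.16 to 4.40), *Etv1* at 15.8 against 9.46 CPM (1.67, 1.31 to 2.11) and *Fgfr1* at 42.9 against 28.2 CPM (1.52, 1.33 to 1.75). *Spry2* gave 1.05 (0.925 to 1.18), *Fgfr2* 1.25 (0.905 to 1.71) and *Fgfr3* 0.816 (0.481 to 1.35). *Etv4* had 24 against 6 UMIs. Of 7 genes with at least 50 UMIs, 4 were higher and 0 lower by 1.5-fold, where 5.24% of all genes were higher and 4.73% lower.

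More *Smo*-cKO than control PyN-IPCs carried PyN markers, 917 of 1936 cells with at least 3 against 1035 of 3322. *Smo*-cKO PyN-IPCs were also deeper, with a median of 4561 against 3894 UMIs, and these numbers were not set at equal depth. Below 3 PyN markers the ratios were 6.31 for *Etv5* (63 against 20 UMIs), 3.07 (1.93 to 4.95) for *Dusp6* and 1.54 (1.23 to 1.91) for *Fgfr1*. At 3 or more they were 3.12 (1.70 to 6.04), 3.01 (1.73 to 5.48) and 1.27 (1.06 to 1.53). The direction was the same on both sides of this split for these 3 genes.

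In PyNs *Fgfr1* stood at 86.9 against 49.3 CPM (1.76, 1.51 to 2.06), *Etv5* at 9.69 against 4.37 CPM (2.22, 1.33 to 3.85) and *Dusp6* at 12.3 against 5.82 CPM (2.12, 1.35 to 3.39). *Fgfr2* gave 1.34 (0.899 to 2.00) and *Spry2* 1.16 (0.967 to 1.39). Of 5 genes with at least 50 UMIs, 3 were higher and 0 lower by 1.5-fold, where 3.88% of all genes were higher and 2.60% lower. The 9 RG markers summed to 776 and 919 CPM in PyN-IPCs and to 679 and 789 CPM in PyNs, slightly higher in the *Smo*-cKO library, and the part of RG transcripts in these neuronal values was not tested.

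**Figure D4:**
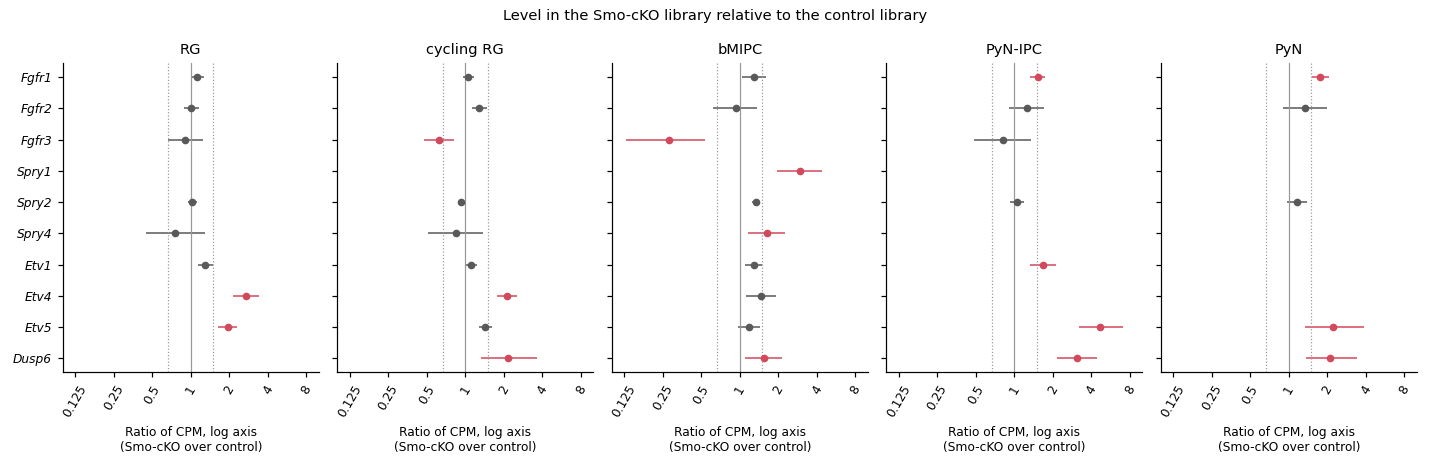
Ratio of CPM, *Smo*-cKO over control (horizontal log axis, bars are exact 95% intervals), for the genes with at least 50 UMIs in each of 5 cell types. Red marks genes past 1.5-fold (dotted lines), gray the others, and absent points are genes with fewer UMIs. *Etv4* leads in RG cells at 2.69, *Etv5* in PyN-IPCs at 4.69, and *Fgfr3* lies lowest in bMIPCs at 0.278.

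The rest of the pathway was read in RG cells from 5 lists of 61 genes, of which 42 had at least 50 UMIs, 4 were higher and 2 lower in the *Smo*-cKO library by 1.5-fold, where 6.18% of all genes were higher and 4.74% lower. None of the 17 transducers between receptor and ERK was past that fold. Of the other feedback inhibitors 0 of 6 were, and of the FGF ligands only 1 of the 7 in the table, *Fgf2*, had 50 UMIs and is named for that alone, at a ratio of 1.21 (0.705 to 2.13). Among other receptors and co-receptors *Flrt2*, which binds FGF receptors, was at 5.71 and 10.9 CPM (1.91, 1.21 to 3.08) and *Sdc4*, a heparan sulfate proteoglycan, at 15.1 and 26.1 CPM (1.73, 1.30 to 2.31). *Gpc3*, a glypican, was at 8.77 and 5.12 CPM (0.584, 0.355 to 0.948).

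Other ERK-induced genes split. *Ier3* had 59 control and 143 *Smo*-cKO UMIs (1.96, 1.44 to 2.70) and *Phlda1* at 46.9 and 71.7 CPM (1.53, 1.30 to 1.80). *Egr1*, an immediate early gene that also responds to tissue handling, was lower, at 94.5 and 40.8 CPM (0.432, 0.369 to 0.505). It was lower as well in cycling RG cells (0.547), PyN-IPCs (0.485) and PyNs (0.448), while bMIPCs stood closer together, at 230.4 and 207 CPM. In RG cells *Fos* (0.737, 0.690 to 0.786) and *Ier2* (0.711, 0.605 to 0.835) were also lower, by less than 1.5-fold. The intervals of *Myc*, *Etv3* and *Klf4* included 1. The ERK-induced genes as a list did not go 1 way.

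In the ferret *FGFR2* was again highest in RG cells. It stood at 110.2 CPM in set 1 and 148 CPM in set 2 in the 171 and 237 RG cells, at 90.9 and 122 CPM in cycling RG cells, at 23.0 and 23.8 CPM in PyN-IPCs and at 8.30 and 10.9 CPM in PyNs. *FGFR1* was at 43.2 and 57.8 CPM in RG cells and at 7.34 and 8.19 CPM in PyNs, and RG cells exceeded PyNs 5.89-fold (3.49 to 9.44) and 7.06-fold (5.07 to 9.62). Of the UMIs of the 3 receptors, *FGFR2* made up 64.6% and 65.9% in ferret RG cells and *Fgfr2* 40.9% and 39.0% in mouse RG cells; the tables were made separately and the ferret annotation is not given, so these are set side by side only. *FGFR1* was also counted in ferret microglia, at 64.3 and 73.4 CPM from 12 UMIs in each set, where mouse microglia had 2 and 3 UMIs.

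*SPRY2* was at 102 and 84.8 CPM in ferret RG cells and at 77.3 and 74.6 CPM in bMIPCs. *SPRY1* was counted in ferret RG cells, 15 and 20 UMIs (32.4 and 24.6 CPM), unlike in the mouse with its 5 and 1 UMIs. Vascular and meningeal cells held its highest level, 85.3 and 63.3 CPM. *DUSP6* had 1 and 7 UMIs in RG cells and stood at 35.1 and 52.0 CPM in bMIPCs, 134 and 128 CPM in microglia and 187 and 144 CPM in vascular and meningeal cells. As in the mouse, vascular and meningeal cells and microglia stood above the cortical lineage for *DUSP6*, though the intervals of these top classes overlapped.

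*ETV1* and *ETV5* had clear counts in ferret progenitors. *ETV1* stood at 186 and 218 CPM in RG cells, 207 and 249 CPM in bMIPCs and 5.01 and 9.16 CPM in PyNs. *ETV5* stood at 58.3 and 61.5 CPM in RG cells, 81.2 and 95.7 CPM in cycling RG cells, 70.2 and 139 CPM in bMIPCs and 145 and 263 CPM in microglia. *ETV4* had 2 and 7 UMIs in RG cells and 1 and 24 UMIs in bMIPCs. *SPRY4* had 2 and 8 UMIs in RG cells. *FGFR3* had 8 and 15 UMIs there, and RG cells exceeded PyNs 24.4-fold (8.87 to 62.3) and 60.4-fold (25.9 to 145).

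The sets of the 1 ferret embryo show the spread that came without a difference in genotype. In RG cells 5 genes had at least 50 UMIs in both sets together, with ratios of set 2 over set 1 from 0.835 to 1.34, and 0 passed 1.5-fold, where 24.1% of all genes did in either direction. In cycling RG cells 1 of 6 did, *FGFR1* at 1.72 (1.18 to 2.56), where 19.5% of all genes did. In PyNs *ETV5* differed 2.38-fold (2.04 to 2.79) between the sets, at 10.1 and 24.1 CPM, and *ETV1* 1.83-fold (1.46 to 2.31). In bMIPCs *FGFR1* differed 2.91-fold (1.24 to 8.33), from 6 and 46 UMIs, and *ETV5* 1.97-fold (1.21 to 3.36), from 20 and 104 UMIs. The sets also differed in make-up, with 54 interneurons in set 1 and 695 in set 2. Ratios of this size thus occurred between sets of the same embryo.

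**Figure D5:**
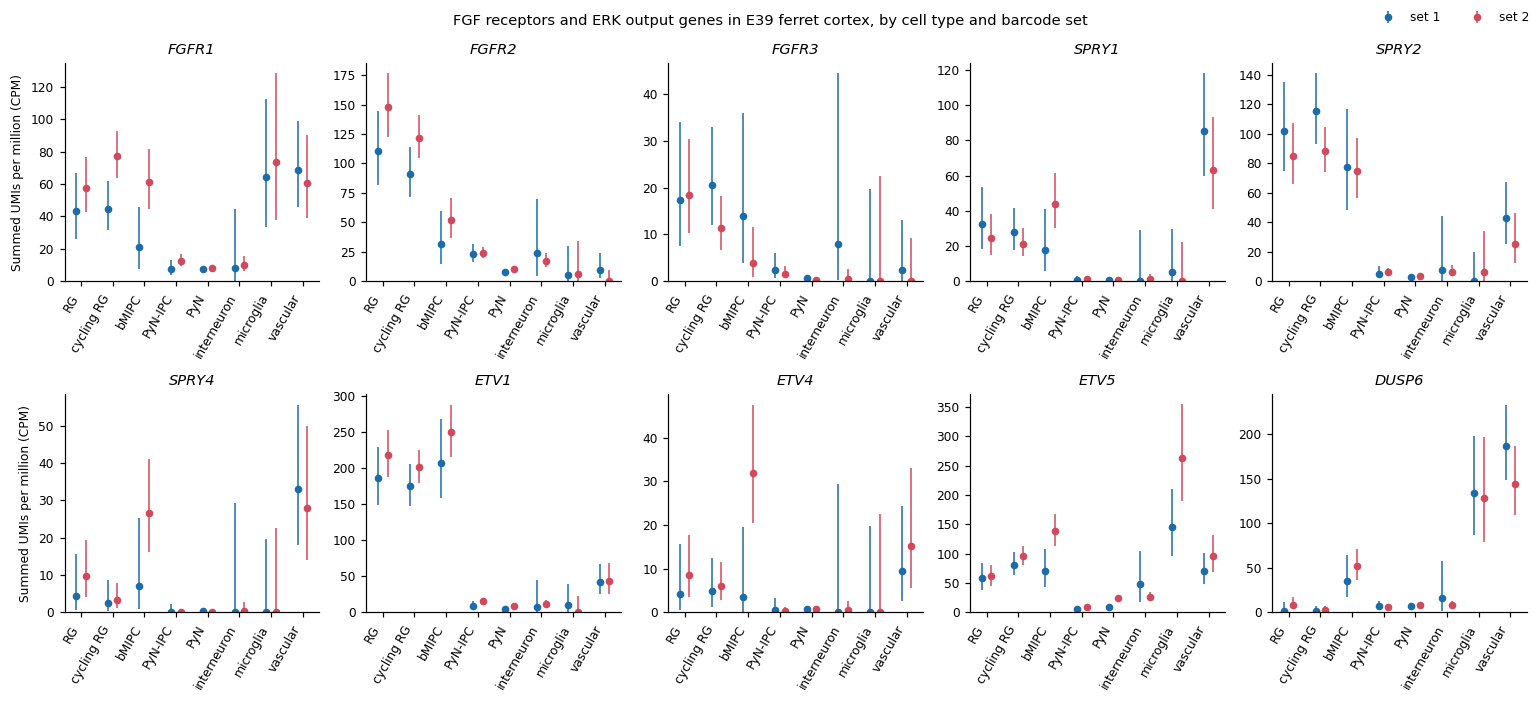
Level of each gene (vertical axis, summed UMIs as CPM, linear and starting at 0) in 8 ferret cell types, with barcode set 1 in blue and set 2 in red. Points are the value of 1 set and bars are exact 95% Poisson intervals. *FGFR2* and *ETV1* are low in PyNs and high in RG cells, and *DUSP6* is highest in vascular and meningeal cells at 187 and 144 CPM.

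Genes with the most like pattern were sought over 16 mouse points, 8 cell types in each of 2 libraries, among 12086 genes, by Pearson's r of log2(CPM + 1). The points share libraries and free RNA, and the rare types rest on few cells, so r is a description. *Fgfr1* was most like *Stk39*, *Tspan7* and *Hmgn3* (r from 0.951 to 0.966), *Fgfr2* like *Fdps* and *Fgfbp3* (0.962 and 0.936) and *Fgfr3* like *Ndufs6*, *9530077C05Rik* and *Slc15a2* (0.968 to 0.978). *Spry1* was most like *Cspg4*, *Calcrl* and *Rassf3* (0.937 to 0.945), *Spry2* like *Ncald*, *Aif1l* and *Cfap20* (0.935 to 0.948), *Spry4* like *Jag1*, *Mapk12* and *Mast4* (0.886 to 0.905) and *Dusp6* like *Hlx*, *Plaur* and *Cpd* (0.935 to 0.946). *Etv1* was most like *Zic5*, *Ednrb* and *Akap7* (0.907 to 0.934), *Etv4* like *A2m*, *Bmp7* and *Dio2* (0.926 to 0.942) and *Etv5* like *Spred1*, *Mphosph6* and *Impdh2* (0.831 to 0.917). *Spred1*, a Sprouty-related inhibitor of ERK signaling, was the 1 gene of the pathway lists among these, and in RG cells its ratio between the libraries was 1.01 (0.870 to 1.17).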

How the data were processed

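Per the labels, the authors made droplet libraries from sorted E18 mouse cells and E39 ferret cells, and their processing notes name Cell Ranger, StringTie, Seurat 3 and, for the mouse, mm10; the ferret build is not given in the sources used here. The deposited tables hold raw UMI counts per gene and barcode, made by the authors, with no sample names, and 0 columns of other samples. Mouse genotype was taken from the barcode suffix by the cell number the study states.

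Cells with 750 to 5000 genes and under 10% mitochondrial counts were kept. A cell joined a class when it held UMIs of enough gate markers, namely RG 4 of 9, bMIPC 2 of 4, PyN-IPC 2 of 6, PyN 3 of 6, interneuron 3 of 6, microglia 3 of 7, and vascular and meningeal 3 of 10; cycling cells held at least 2 of 8 G2/M or 3 of 7 S markers. Cells that passed more than 1 gate were left unassigned, with 2 exceptions. A bMIPC could also pass the RG gate, and a PyN-IPC could also pass the PyN gate. No doublet caller was run. Counts were summed per class and library and divided by the summed total to give CPM. Ratios were read where a gene had 50 UMIs or more over the pair of libraries, at a fold of 1.5. Ratio intervals are exact conditional binomial, CPM intervals exact Poisson and shares Clopper-Pearson, at 95%. Shares were also computed for cells thinned to 3000 UMIs. The ratios, their intervals, the fold limit and the thinned shares were tested on simulated counts. These counts held Poisson error only, with no spread between embryos, and cell assignment was not part of that test.

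Every one of the 10 genes is named. Of the pathway lists, genes past the fold in RG cells whose interval left out 1 are named, at most 3 each way per list, and for each of the 10 genes the 3 with the highest correlation among genes with at least 10 CPM in 1 point, gate markers left out; 1 of these is not reported here. *Fgf2* and the ERK-induced genes under the fold are named outside these rules. The genes, lists and classes were chosen with earlier results of these data known. Gene positions came from the GENCODE annotation, which matched 16568 of 17170 mouse symbols. Alternatives varied the gate, cell filter, depth, scaling, fold and minimum. Tables were handled with pandas 2.3.3 and numpy 2.4.6 in Python 3.11.15, intervals came from scipy 1.17.1 and plots from matplotlib 3.10.9.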

Additional observations from a re-analysis of the deposited data

Results flagged for a closer look

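*Dusp6* differed between the libraries in opposite directions in different cell types. It was higher in the *Smo*-cKO library in cycling RG cells (ratio 2.17), bMIPCs (1.54), PyN-IPCs (3.07) and PyNs (2.12). In vascular and meningeal cells it was lower, at 230.0 CPM in the control and 139 CPM in the *Smo*-cKO library, a ratio of 0.606 (0.370 to 0.962) from 70 and 26 UMIs in 46 and 26 cells. The share of vascular and meningeal cells with a *Dusp6* UMI differed by -8.70 percentage points (-30.9 to 14.3), *Smo*-cKO minus control. That interval included 0. How many of all genes were past 1.5-fold in this class is not given. The difference between these cell types was not tested.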

How the results depend on the processing

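No paired analysis was possible because each genotype had 1 library. The ratios of the 10 genes in RG cells were recomputed under 11 alternatives, which gave 110 values, of which 106 stayed within the counting interval of the reported ratio and 0 of the ratios past 1.5-fold turned direction. The other 4 were *Fgfr2* at 1.15, *Spry2* at 0.957 and *Etv5* at 1.56 with cycling RG cells included, and *Spry2* at 0.921 with cells holding a maturing astroglia marker left out, an alternative chosen after seeing the data. *Etv4* ranged from 2.27 to 2.77 and *Etv5* from 1.56 to 2.09. At a fold of 2, the count of the 10 genes past the fold in RG cells went from 2 to 1 (*Etv4*), and that of the pathway lists from 6 to 1 (*Egr1*). With cycling RG cells included, 3 of the 10 genes were past 1.5-fold, with *Dusp6* at 1.88. With no minimum of UMIs, 4 of the 10 genes were past 1.5-fold, the added ones being *Dusp6* and *Spry1*. Of the 6 genes whose shares of RG cells differed by at least 5 percentage points, 2 did so after thinning to 3000 UMIs. For these alternatives and for the shares of cells, no share over all genes is given beside the counts. The counts are therefore not read as a result about the 10 genes. In the mouse 8 of the 10 genes were highest in an RG or bMIPC class under stricter gates and in each library alone. Which of these classes was highest changed between the settings for *Fgfr1*, *Fgfr3*, *Etv4* and *Etv5*. In the ferret the count of genes highest in an RG or bMIPC class was 5, and 4 to 6 in the single sets. How many of all genes are highest in these classes is not given, so the counts only describe the 10 genes. In RG cells *Spry1* (6 UMIs) and *Dusp6* (36 UMIs) had too few counts for a ratio to be read.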
